A study of Mus musculus with 6 samples.

Results

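GPC_8 is 1 of the clusters that the study drew among cells of the early postnatal mouse striatum, and its members were taken here as the cells annotated GPC_8 in the deposited cell metadata, matched to the count table by cell identifier. It held 574 of the 14373 annotated cells, all of them from postnatal day 3 (P3), with 144, 249 and 181 cells in P3 replicates 1, 2 and 3. Wild-type male C57BL/6 mice were sampled at P3 and at 3 months (3m), with 3 libraries at each age and no treatment in either group. Each preparation pooled 2 to 5 animals and was enriched with magnetic beads against ACSA2, an astrocyte surface antigen, so a library is 1 pool of sorted cells and not 1 animal, and cells without the antigen are depleted but not absent. GPC_8 was set against GPC_9, the other proliferating glial progenitor cluster of the study (512 P3 cells), and against 7572 non-cycling P3 astroglial cells of the same libraries, which are the P3 astroglial cells outside GPC_8, GPC_9, the multiciliated cluster 19 and the proliferating sub-clusters 6 and 8.

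A cell that copies its genome in S phase must also supply the histones that wrap the new DNA. The replication-dependent histone genes lie in clusters, have no introns as a rule, and are transcribed and translated mainly while DNA is being synthesised. Their mRNAs end in a short stem-loop in place of a poly(A) tail, which the stem-loop binding protein Slbp recognises. Origin licensing by the Mcm helicase precedes S phase, and mitotic cyclins and kinetochore proteins accumulate after it, in G2 and M phase. In the early postnatal striatum, glial progenitors and young astrocytes still divide, whereas adult striatal astrocytes are largely quiescent.

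GPC_8 made up 7.25% of the P3 astroglial cells in replicate 1 (95% Wilson interval 6.19 to 8.48%), 8.02% in replicate 2 (7.12 to 9.03%) and 4.78% in replicate 3 (4.15 to 5.51%), a mean of 6.69% ± 1.69 (SD, n = 3 libraries). The interval of replicate 3 lay below those of the other libraries. These intervals cover counting error only. None of the 1118 astroglial cells of the 3m libraries was annotated GPC_8. Counted over these pooled cells, this allows a share of up to 0.268%, a limit that leaves out the spread between libraries. Those cells held 4 UMIs (unique molecular identifiers, one per captured molecule) of *Hist1h1b* in all. Total counts ranged from 32193875 to 37795021 UMIs over the P3 libraries, and the median GPC_8 cell had 18550, 19050 and 15083 UMIs in replicates 1 to 3. That was 1.40 ± 0.163 times the median of GPC_9 and 2.56 ± 0.492 times that of non-cycling astroglia (mean ± SD of 3 libraries). The median mitochondrial share in GPC_8 was 2.08, 1.38 and 0.972% by library, against 2.58, 1.81 and 1.30% in non-cycling cells. Of the barcodes in GPC_8, 4 also occurred in another library. After the study re-clustered the astroglial cells, 567 of the 574 fell in sub-cluster 6, 4 in sub-cluster 8 and 3 in sub-cluster 2.

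The label of a histone-rich cycling population goes with the markers *Hist1h1b* (the linker histone H1.5), *Hist1h2ap* (a histone H2A) and *Top2a* (topoisomerase II alpha, which untangles replicated DNA). These were chosen with earlier results of these data known, so their levels describe the label and do not check it. Among genes that averaged 50 CPM or more in GPC_8, the 10 that set it furthest above all other P3 cells were all replication-dependent histones, headed by *Hist1h2af*, *Hist1h2ab*, *Hist1h3c* and *Hist1h1b*. A UMI in at least 2 of *Mki67*, *Top2a* and *Cdk1* was found in 553 GPC_8 cells (96.3%), 428 GPC_9 cells (83.6%) and 230 non-cycling cells (3.04%). These shares were taken at the full depth of each cell, which was greatest in GPC_8. Both proliferating clusters thus carried the cycling genes, and the histone genes separated one from the other. The clusters were drawn from all genes of these cells, so every difference between them is given as a description, without a test. A gene was counted as higher or lower when summed UMIs, scaled to a common library total (CPM, counts per 1000000), differed at least 2-fold in the same direction within each of the 3 P3 libraries, and log2 ratios are means ± SD over those libraries of log2((CPM + 1)/(CPM + 1)).

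Against non-cycling astroglia, 656 of 10538 genes (6.23%) were higher in GPC_8 and 622 (5.9%) were lower. The median log2 ratio of all genes was -0.15 there, and with the size factors of relative log expression (RLE), which moved that median to 0.01, the split was 798 higher and 435 lower. Which side was larger depended on the setting, with 812 higher and 1080 lower from ratios of the population means, 684 and 846 without replicate 1, 735 and 794 without replicate 2, and 686 and 707 without the filter on low values. The non-cycling set also holds sub-clusters that the paper proposes may be astrocytes of adjacent regions. Against its telencephalic sub-clusters only (0, 1, 2, 9 and 11), 685 genes were higher and 502 lower. Of these, 623 and 420 were also among the 656 and 622, so part of the lower genes depended on the regional mix of the non-cycling set. Against GPC_9, 178 of 9904 genes (1.8%) were higher and 32 (0.323%) were lower, with a median of 0.00. Fewer genes thus separated GPC_8 from GPC_9 than from resting astroglia, and most of them were higher in GPC_8. Both contrasts use the same GPC_8 cells. The plot of both ratios for every gene shows most histones at the upper right and most mitotic genes at the lower right.

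**Figure D1:**
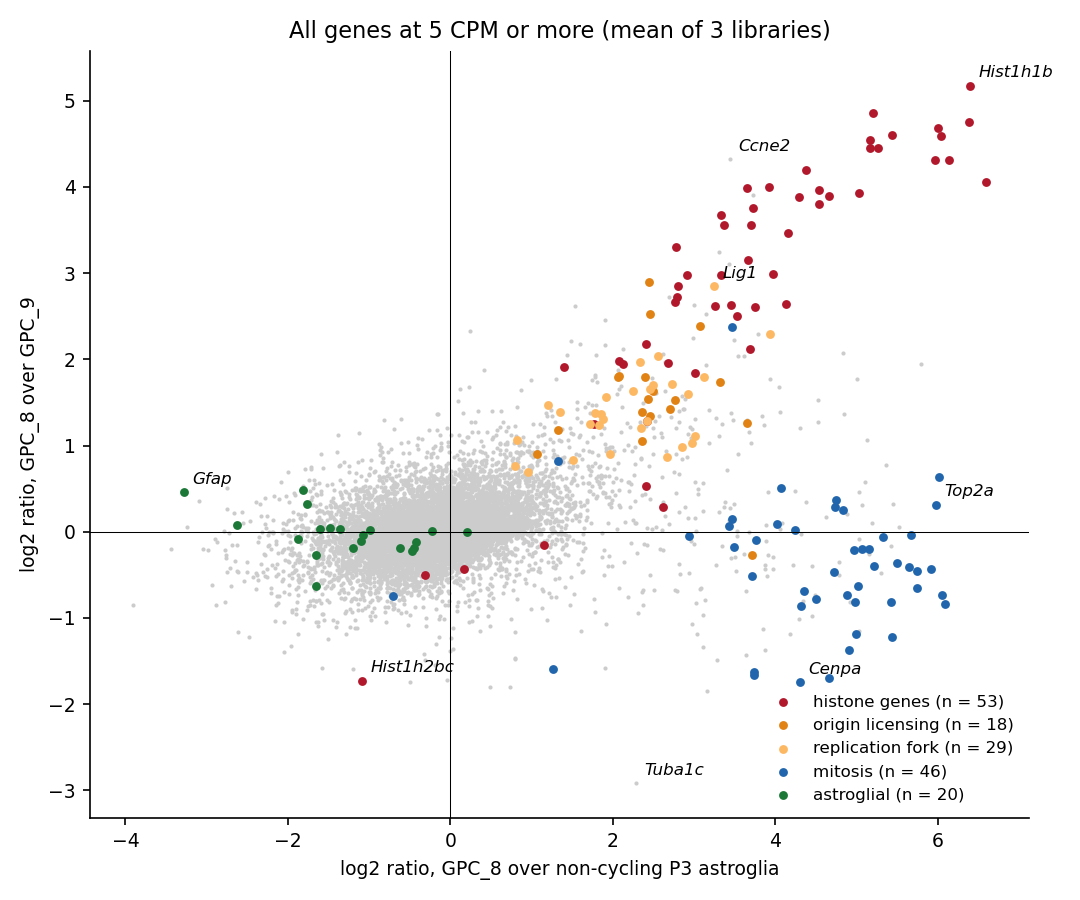
Log2 ratio of GPC_8 over non-cycling P3 astroglia (x axis) against log2 ratio of GPC_8 over GPC_9 (y axis), 1 point per gene, as means of 3 P3 libraries. Most histone genes (red) lay high on both axes, up to *Hist1h1b* at 6.40 and 5.17, and most licensing and fork genes (orange, yellow) were moderately high on both. Most mitotic genes (blue) were high on the x axis only. Exceptions were *Mybl2*, at 2.37 on the y axis, and *Pttg1*, at -0.71 on the x axis. Most astroglial genes (green) lay to the left near 0 on the y axis.

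The replication-dependent histones were the leading group. Of 67 listed genes, 52 passed the filter on low values against non-cycling cells, and 48 of these were higher in GPC_8 and 0 lower, with a list median of 3.67. Against GPC_9, 53 passed, 46 were higher and 1 was lower, with a list median of 3.15 and library medians of 2.74, 3.40 and 3.46. Together the 67 genes took 0.655, 1.27 and 1.10% of all UMIs of GPC_8 in replicates 1, 2 and 3, against 0.0980, 0.129 and 0.108% in GPC_9 and 0.0490, 0.102 and 0.0842% in non-cycling cells. The 3 GPC_8 libraries thus lay above every library of the other populations.

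*Hist1h1b* (chromosome 13, 21779883 to 21780625, minus strand, GRCm38) stood at 2134, 3192 and 3096 CPM in the 3 GPC_8 libraries, at 87.1, 62.1 and 79.8 CPM in GPC_9 and at 16.3, 35.5 and 54.7 CPM in non-cycling astroglia. Its log2 ratio was 5.17 ± 0.54 over GPC_9 and 6.40 ± 0.58 over non-cycling cells, and no library of one population overlapped another. *Hist1h2ap* (chromosome 13, 21833026 to 21833507, minus strand) stood at 298, 818 and 169 CPM in GPC_8, at 17.3, 27.7 and 9.09 CPM in GPC_9 and at 1.59, 9.31 and 3.43 CPM in non-cycling cells. Replicate 2 was highest in all 3 populations for this gene. *Top2a* (chromosome 11, 98992943 to 99024189, minus strand) behaved differently, with 939, 676 and 811 CPM in GPC_8 against 834, 477 and 671 in GPC_9, a log2 ratio of 0.32 ± 0.17, and 9.30, 7.61 and 22.6 CPM in non-cycling cells.

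**Figure D2:**
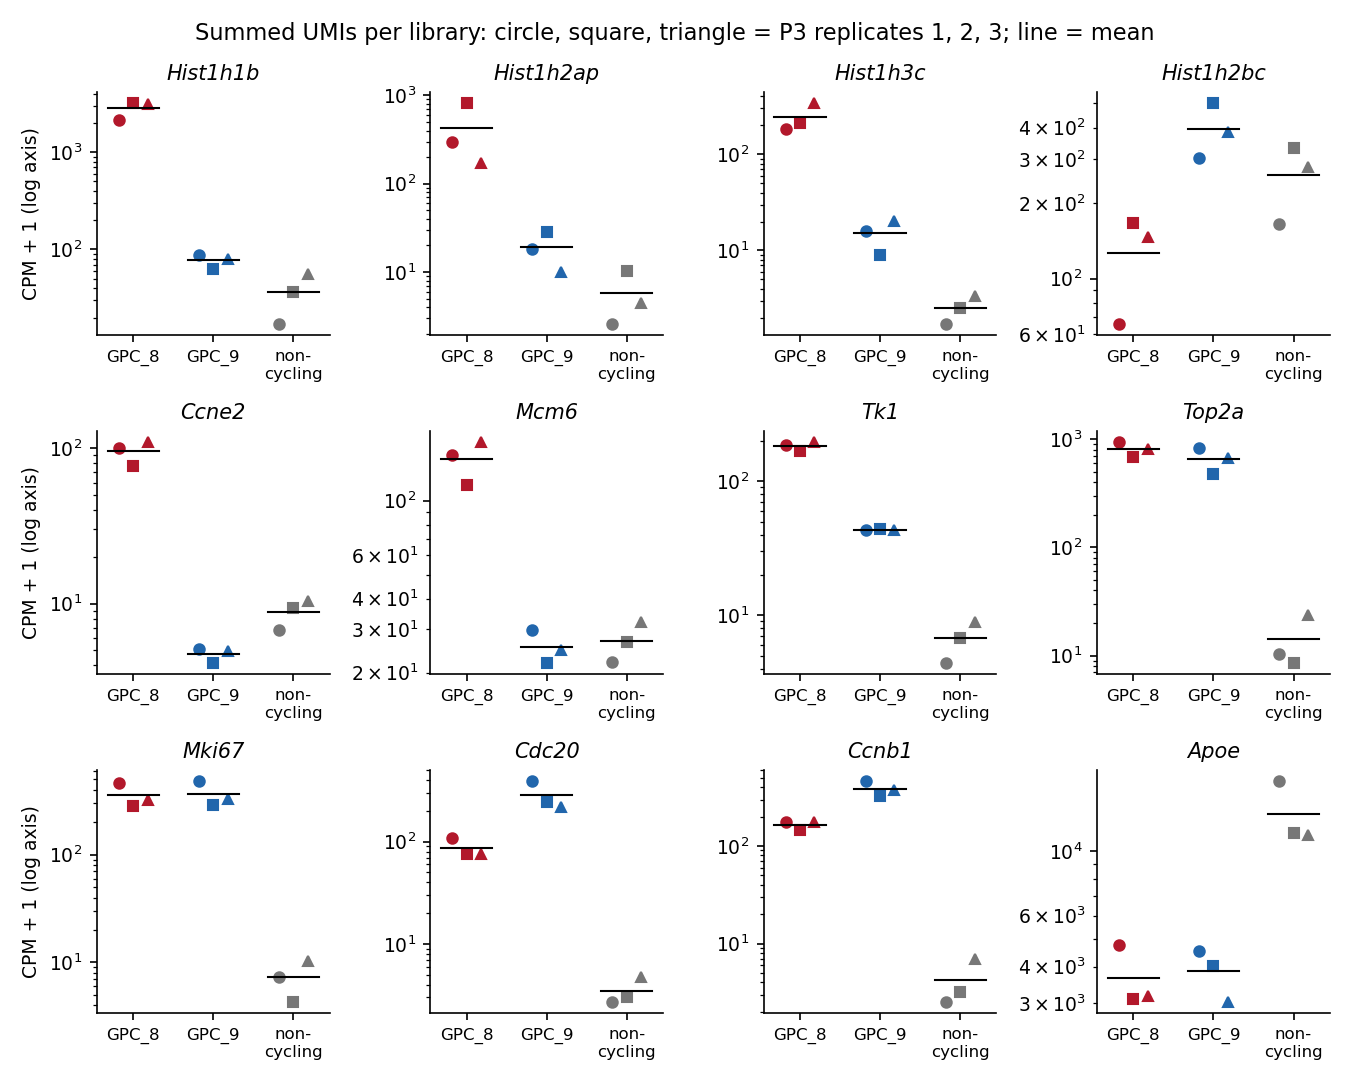
CPM + 1 on a log axis for 12 genes in GPC_8 (red), GPC_9 (blue) and non-cycling P3 astroglia (grey), with 1 symbol per P3 library and a line at the mean. The histones *Hist1h1b*, *Hist1h2ap* and *Hist1h3c* and the replication genes *Ccne2*, *Mcm6* and *Tk1* were highest in GPC_8, *Cdc20* and *Ccnb1* were highest in GPC_9, and *Apoe* was highest in non-cycling cells.

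All 5 histone classes took part. For the linker histone H1, 5 of 5 genes past the filter were higher than in GPC_9, with a median log2 ratio of 3.46. For the core histones the counts were 12 of 14 for H2A (median 3.78), 10 of 13 for H2B (2.97), 9 of 9 for H3 (3.80) and 10 of 12 for H4 (2.42). After *Hist1h1b*, the 2 largest ratios over GPC_9 within the list were those of *Hist1h1a* (153, 295 and 317 CPM against 5.34, 8.70 and 8.69 CPM, 4.85 ± 0.23) and *Hist1h2af* (85.6, 144 and 216 CPM against 2.47, 3.16 and 8.69 CPM, 4.75 ± 0.33). *Hist1h1c*, a linker histone also made outside S phase, differed least in its class, at 129, 86.9 and 63.2 CPM against 59.99, 28.5 and 26.9 CPM (1.29 ± 0.25). *Hist1h1e* reached 780, 1542 and 1265 CPM in GPC_8, and it was the linker histone with lower levels in GPC_9 (84.6, 156 and 118 CPM) than in non-cycling cells (96.0, 242 and 201 CPM).

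**Figure D3:**
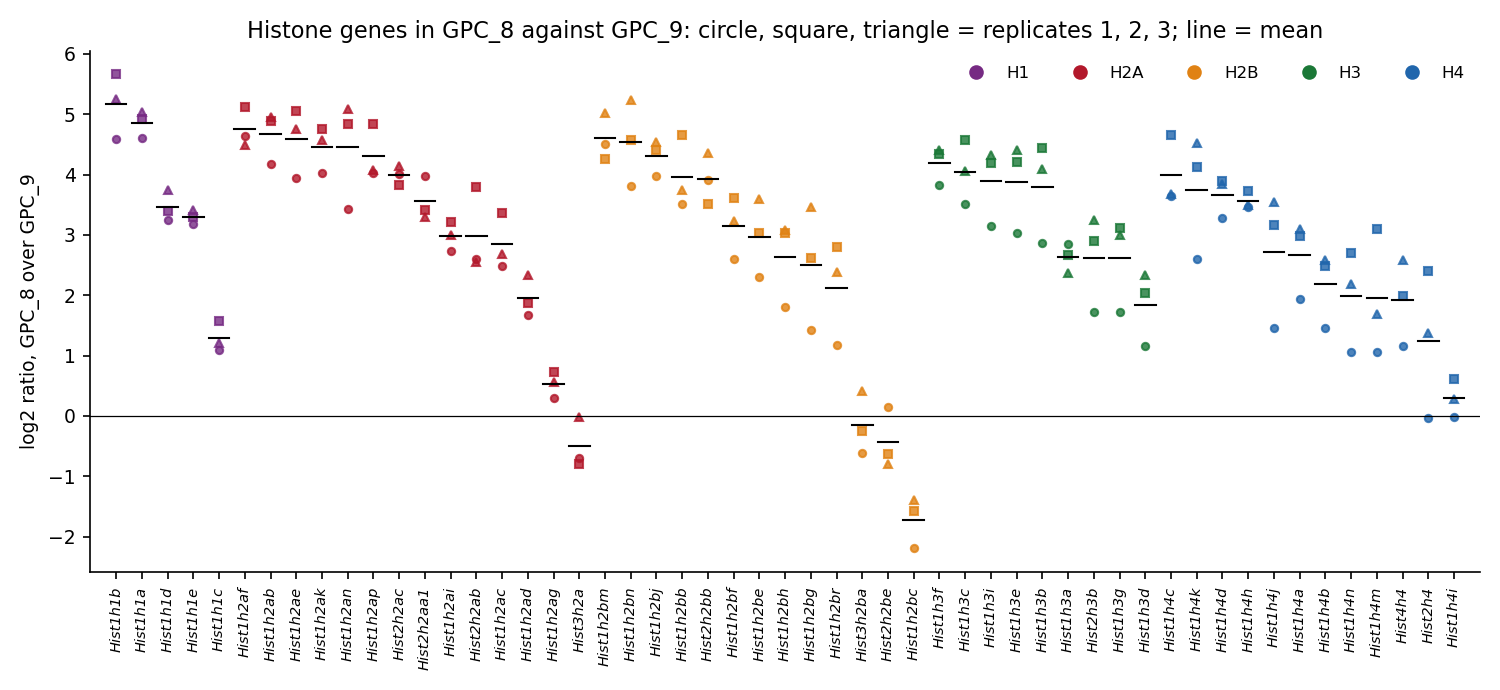
Log2 ratio of GPC_8 over GPC_9 for the 53 histone genes past the filter, grouped by class and ordered by mean, with 1 symbol per P3 library and a line at the mean. Most genes lay between 1 and 5 in every library, and *Hist1h2bc* lay below 0 in all 3.

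*Hist1h2bc* was the 1 histone lower in GPC_8 than in GPC_9. It stood at 65.1, 166 and 145 CPM in GPC_8, against 301, 500 and 384 CPM in GPC_9 and 165, 332 and 277 CPM in non-cycling cells. The log2 ratio was -1.73 ± 0.42 over GPC_9 and -1.08 ± 0.21 over non-cycling cells, short of 2-fold in at least 1 library in the second case. The genes that passed the filter and differed less than 2-fold from GPC_9 in at least 1 library were *Hist1h2ag* (0.53 ± 0.22), *Hist1h4i* (0.29 ± 0.32), *Hist2h2be* (-0.43 ± 0.50), *Hist2h4* (1.24 ± 1.22), *Hist3h2a* (-0.50 ± 0.42) and *Hist3h2ba* (-0.15 ± 0.52). *Hist1h4i* was high in both proliferating clusters, at 71.5, 138 and 106 CPM in GPC_8 and 72.3, 89.4 and 87.3 CPM in GPC_9, against 11.7, 21.7 and 15.2 CPM in non-cycling cells.

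The histone genes of the list lie mainly on chromosome 13, with 54 of the 67, and on chromosome 3, with 10. Stretches around the stem-loop are shown for 4 genes higher than in GPC_9, from the classes H2A, H3 and H4. Their form bears on how such mRNAs can be counted. The annotated transcripts run on past the stem-loop for 3 bases in *Hist1h2ap*, 151 in *Hist1h2ae*, 74 in *Hist1h3c* and 770 in *Hist1h4d*. Capitals mark the letters that match the histone stem-loop pattern, with fixed stem ends and a T-rich loop, in the annotated transcript (GENCODE on GRCm38, transcript strand, 5′ to 3′).
Hist1h2ap, chr13:21833026-21833049, minus strand: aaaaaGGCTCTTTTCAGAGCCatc
Hist1h2ae, chr13:23570663-23570688, minus strand: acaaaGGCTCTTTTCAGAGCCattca
Hist1h3c, chr13:23745042-23745067, minus strand: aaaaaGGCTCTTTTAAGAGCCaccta
Hist1h4d, chr13:23581945-23581970, plus strand: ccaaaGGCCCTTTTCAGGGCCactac
The 6 bases before and the 6 after the loop pair with each other in each of these, and the H4 gene differs from the others in the stem.

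An annotated transcript with this pattern was found for 44 of the 67 histone genes. Among the other 23, the longest transcript of 15 has a length divisible by 3, the length of a bare coding sequence, so the annotation may stop short of the stem-loop. *Hist1h2bc* has a transcript of 1156 bases without the pattern. Of the genes past the filter, 31 of 36 with the pattern and 15 of 17 without it were higher in GPC_8 than in GPC_9. The libraries were primed on poly(A), so a histone UMI stands for a molecule that the primer reached. The level of one histone gene against another, or of a histone against a tailed mRNA, was therefore not read from these counts. Several histone genes have near-identical copies (*Hist1h4m* and *Hist1h4n*, *Hist2h2aa1* and *Hist2h2aa2*, *Hist1h2ao* and *Hist1h2ap*), among which reads can be split or dropped, so their single values are uncertain.

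Histone levels varied between libraries more than the ratios did. Over the 52 histone genes past the filter, the median SD across libraries of log2(CPM + 1) in GPC_8 was 0.76, whereas the median SD of the log2 ratio over non-cycling cells was 0.35. The ratio was the steadier quantity for 49 of these genes, and 44 had their lowest GPC_8 level in replicate 1. *Hist1h3e*, for example, stood at 109, 631 and 833 CPM in GPC_8 and at 4.65, 32.7 and 39.1 CPM in non-cycling cells, with a log2 ratio of 4.29 ± 0.07. *Hist1h4h* likewise stood at 95.6, 654 and 318 CPM against 5.39, 51.6 and 26.6 CPM, with a ratio of 3.70 ± 0.20. A library that was low for these genes was low in both populations.

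Genes that handle histone mRNA or deliver histones to DNA followed in part. Of 14 past the filter, 7 were higher than in non-cycling cells and 5 were higher than in GPC_9. *Slbp*, which binds the stem-loop, stood at 211, 188 and 253 CPM in GPC_8, 50.1, 56.2 and 77.8 CPM in GPC_9 and 48.7, 64.8 and 75.01 CPM in non-cycling cells. The latter populations overlapped each other and not GPC_8 (1.82 ± 0.20 over GPC_9). *Chaf1b*, a subunit of the chromatin assembly factor that loads histones behind the fork, stood at 57.9, 46.0 and 62.9 CPM against 6.16, 3.56 and 7.51 CPM in GPC_9 (3.10 ± 0.24). Its partner *Chaf1a* (1.34 ± 0.23), the chaperone *Asf1b* (1.67 ± 0.12) and the histone acetyltransferase *Hat1* (1.38 ± 0.14) were also higher than in GPC_9. *Npat*, the cyclin E and Cdk2 substrate that activates histone genes, had a ratio of 0.77 ± 0.21 over GPC_9 and did not reach 2-fold in every library.

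The licensing list holds the origin recognition, loading and helicase genes. Of 18 past the filter, 17 were higher than in non-cycling cells (median log2 ratio 2.45) and 15 were higher than in GPC_9 (median 1.53). *Mcm6*, a subunit of the helicase (chromosome 1, 128331590 to 128359664, minus strand), stood at 152, 115 and 172 CPM in GPC_8, 28.8, 21.0 and 23.7 CPM in GPC_9 and 21.1, 25.6 and 31.1 CPM in non-cycling cells. GPC_9 and non-cycling cells overlapped, and GPC_8 lay above both (2.53 ± 0.25 over GPC_9). *Cdc6*, which loads the helicase, stood at 21.9, 14.4 and 25.4 CPM against 2.88, 0.396 and 3.16 CPM in GPC_9 (2.90 ± 0.50). *Cdc45* (2.38 ± 0.12), *Cdt1* (1.79 ± 0.28) and *Mcm10* (1.74 ± 0.07) were higher as well. *Dbf4*, the activator of the Cdc7 kinase, differed: it was high in both proliferating clusters, at 115, 88.9 and 116 CPM in GPC_8 and 138, 98.5 and 155 CPM in GPC_9, against 6.98, 6.09 and 8.65 CPM in non-cycling cells.

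At the fork, 25 of 29 genes were higher than in non-cycling cells (median 2.34) and 21 were higher than in GPC_9 (median 1.37). *Lig1*, which joins Okazaki fragments, stood at 261, 186 and 248 CPM against 28.4, 28.1 and 37.5 CPM in GPC_9 (2.85 ± 0.27). *Pcna*, the sliding clamp, stood at 463, 354 and 405 CPM against 134, 110 and 129 CPM (1.70 ± 0.07). *Clspn*, a checkpoint mediator at the fork (2.29 ± 0.11), and *Prim1*, the primase (2.04 ± 0.31), were among the others. Of the 10 nucleotide supply genes, 9 were higher than in non-cycling cells and 6 higher than in GPC_9. *Tk1*, thymidine kinase, stood at 185, 167 and 195 CPM in GPC_8, 42.3, 42.7 and 42.3 CPM in GPC_9 and 3.43, 5.77 and 7.95 CPM in non-cycling cells, so that the 3 populations formed 3 separate levels. *Rrm2*, the ribonucleotide reductase subunit made in S phase, stood at 488, 357 and 703 CPM against 217, 159 and 289 CPM in GPC_9 (1.20 ± 0.07). *Dck*, the deoxycytidine kinase, had a ratio of 1.09 ± 0.21 over GPC_9 and missed 2-fold in at least 1 library.

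Genes of DNA repair and fork protection moved with the replication genes, with 13 of 15 higher than in non-cycling cells (median 2.97) and 10 higher than in GPC_9 (median 1.35). The largest ratios over GPC_9 in this list were those of *Atad2*, a chromatin ATPase (187, 114 and 148 CPM against 26.3, 18.6 and 24.5 CPM, 2.63 ± 0.14), and *Brca1*, a recombination factor (74.4, 46.0 and 59.7 CPM against 13.6, 7.12 and 14.6 CPM, 2.29 ± 0.30). *Fancd2* (0.24 ± 0.27) and *Fanci* (0.23 ± 0.27), which act as a pair in crosslink repair, were near GPC_9 and higher than in non-cycling cells (3.11 ± 0.29 and 2.81 ± 0.46).

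Among 20 genes that control entry into S phase, 12 were higher than in non-cycling cells and 8 were higher than in GPC_9. *Ccne2* (cyclin E2, chromosome 4, 11191351 to 11204779, plus strand) stood at 98.9, 75.9 and 109 CPM in GPC_8, 4.11, 3.16 and 3.95 CPM in GPC_9 and 5.75, 8.41 and 9.42 CPM in non-cycling cells. It was the only gene that is not a histone among the 10 largest ratios over GPC_9 (4.32 ± 0.13), ranked among genes that averaged 50 CPM or more in GPC_8 and without predicted genes, and its level in GPC_9 was below every non-cycling library. *Ccne1*, the other cyclin E, had ratios of 2.72 ± 0.65 over GPC_9 and 2.69 ± 0.29 over non-cycling cells. *E2f1*, the transcription factor that drives S phase genes, stood at 28.0, 28.3 and 36.4 CPM against 5.34, 3.96 and 5.14 CPM in GPC_9 (2.46 ± 0.23). Its repressive relatives *E2f7* (2.04 ± 0.39) and *E2f8* (1.53 ± 0.37) were higher too. The Cdk inhibitor *Cdkn1a* was also higher than in GPC_9, at 16.9, 12.4 and 17.5 CPM against 3.70, 4.75 and 3.16 CPM (1.77 ± 0.49). The D cyclins of G1 showed no such gap, with ratios over GPC_9 of 0.15 ± 0.26 for *Ccnd1*, 0.53 ± 0.17 for *Ccnd2* and 0.62 ± 0.18 for *Ccnd3*.

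The promoters of a histone, a licensing and a mitotic gene are shown, since these groups differed in their ratios over GPC_9. Each is the 250 bases before the RefSeq start site on GRCm38, written 5′ to 3′ on the strand of the gene, and capitals mark every match, on either strand, to CCAAT, to the cell cycle homology core of mitotic genes, which reads TTTGAA, to the TATA box, which reads TATAAA, to the octamer ATTTGCAT of histone H2B promoters or to the E2F letters TTTCCCGC, TTTGGCGC, TTTGCCGC and TTTCGCGC.
Hist1h1b, chr13:21780626-21780875, minus strand: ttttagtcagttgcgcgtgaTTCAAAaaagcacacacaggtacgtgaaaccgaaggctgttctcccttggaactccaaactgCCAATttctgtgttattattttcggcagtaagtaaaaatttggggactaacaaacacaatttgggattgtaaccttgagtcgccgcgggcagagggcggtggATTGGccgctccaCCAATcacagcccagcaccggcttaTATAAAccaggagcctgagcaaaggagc
Mcm6, chr1:128359706-128359955, minus strand: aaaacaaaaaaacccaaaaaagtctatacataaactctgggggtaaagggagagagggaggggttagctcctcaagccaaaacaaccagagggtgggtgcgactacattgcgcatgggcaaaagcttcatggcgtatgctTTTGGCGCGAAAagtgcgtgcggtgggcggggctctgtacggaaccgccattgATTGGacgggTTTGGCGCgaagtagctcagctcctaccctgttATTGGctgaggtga
Cdc20, chr4:118437344-118437593, minus strand: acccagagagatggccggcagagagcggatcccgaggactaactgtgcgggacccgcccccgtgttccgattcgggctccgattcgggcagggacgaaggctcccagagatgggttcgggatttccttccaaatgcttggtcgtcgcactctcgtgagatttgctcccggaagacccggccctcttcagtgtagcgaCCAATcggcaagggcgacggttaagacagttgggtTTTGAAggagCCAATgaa
*Hist1h1b* has 3 CCAAT matches, at 168, 66 and 53 bases before the start, a TTTGAA at 230 and a TATAAA at 28. *Mcm6* has E2F matches at 110, 106 and 47 bases before the start, of which the first and second overlap, and CCAAT at 57 and 14. *Cdc20* has a TTTGAA at 18 and CCAAT at 53 and 8 bases before it.

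Over windows of 300 bases that run from 250 before to 50 after the start, E2F letters occurred in 2.26% of all 32851 RefSeq promoters, in 7 of 13 matched licensing genes (53.8%), in 6 of 14 S phase entry genes (42.9%), in 7 of 23 fork genes (30.4%), in 0 of 9 nucleotide supply genes, in 10 of 61 histone genes (16.4%) and in 4 of 34 mitotic genes (11.8%). TTTGAA occurred in 17.9% of all promoters, in 67.6% of the mitotic and in 45.9% of the histone promoters. Over the other lists searched its share ran from 8.70% (fork) to 38.5% (licensing). TATAAA occurred in 13.6% of all, in 55.7% of the histone and in 0 of 34 mitotic promoters. CCAAT was common in all, at 37.4%, and more so in histone (85.2%) and mitotic promoters (79.4%). Its share ran from 33.3% (nucleotide supply) to 69.2% (licensing) over the other lists. The octamer occurred in 1.74% of all and 21.3% of histone promoters. Matches of different motifs can share bases, and a match describes the sequence and not binding.

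The mitotic genes set GPC_8 apart from resting astroglia but not above GPC_9. Of 46 genes, 45 were higher than in non-cycling cells, with a median log2 ratio of 4.78, and the exception was *Pttg1*, the securin gene, at 60.04, 77.8 and 65.0 CPM against 106, 124 and 103 CPM (-0.71 ± 0.09). Against GPC_9 the list median was -0.42, with 1 gene higher and 8 lower. *Mki67*, the proliferation marker, was level with GPC_9 at 461, 282 and 322 CPM against 482, 288 and 327 CPM (-0.04 ± 0.02). *Cdc20*, the activator of the anaphase-promoting complex, stood at 108, 74.7 and 74.3 CPM in GPC_8 against 392, 244 and 216 CPM in GPC_9 (-1.69 ± 0.16). *Ccnb1*, cyclin B1, stood at 175, 144 and 174 CPM against 463, 324 and 372 CPM (-1.22 ± 0.16). Also lower were *Ccnb2*, *Aspm*, *Cdc25b*, *Cdc25c* and the centromere genes *Cenpa* and *Cenpf*, with ratios from -1.74 (*Cenpa*) to -1.18 (*Cenpf*). The 1 mitotic list gene higher than in GPC_9 was *Mybl2*, a transcription factor of the S and G2 programme, at 23.4, 15.5 and 20.4 CPM against 2.05, 2.77 and 4.35 CPM (2.37 ± 0.54).

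Of the genes lower in GPC_8 than in GPC_9 that averaged 50 CPM or more in GPC_9, leaving out predicted genes, the furthest apart was *Tuba1c*, an alpha tubulin, at 21.2, 41.9 and 52.9 CPM in GPC_8 against 220, 278 and 354 CPM (-2.91 ± 0.35). *Tuba1c* was still higher in GPC_8 than in non-cycling cells, at 4.47, 6.09 and 10.5 CPM (2.28 ± 0.29). *Cdkn3*, a phosphatase of the cell cycle, and *Knstrn*, a kinetochore protein, followed the same order of the 3 populations, with ratios over GPC_9 of -1.85 ± 0.18 and -1.49 ± 0.04. *Arl6ip1* and *Emp1* were lower than in GPC_9 (-1.72 ± 0.10 and -1.54 ± 0.33) but level with non-cycling cells (-0.04 ± 0.16 and -0.19 ± 0.21).

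To compare single cells of unequal depth, each cell was thinned to 4000 UMIs, which kept 558 of 574 GPC_8, 479 of 512 GPC_9 and 5710 of 7572 non-cycling cells. The median GPC_8 cell then held 39 histone UMIs, with 25, 49 and 43 in replicates 1 to 3 and a 10th to 90th percentile of 13 to 76. The median was 4 in GPC_9 and 3 in non-cycling cells, and the highest single cells there held 26 and 30. For the mitotic list the medians were 30, 40 and 1 UMIs in GPC_8, GPC_9 and non-cycling cells, and for the licensing list 6, 2 and 1.

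*Hist1h1b* was seen in 96.8% of thinned GPC_8 cells (98.4% unthinned), 21.5% of GPC_9 (40.6%) and 8.18% of non-cycling cells (14.6%). In the 19 thinned cells of the neuronal cluster NEU_22, with a median depth of 11181 UMIs against 17595 in GPC_8, it was seen in 0, which allows up to 15.8%. These cells are too few to tell the share of non-cycling cells from background. In other P3 clusters the thinned share of *Hist1h1b* was 7.79% in OPC_18, 13.1% in MIC_16, 15.0% in PER_6, 19.8% in END_7 and 70.6% in END_13. *Hist1h2ap* was seen in 68.5% of thinned GPC_8 cells (88.9% unthinned), and this share was 58.2, 91.7 and 44.6% by library. It was seen in 6.89% of GPC_9 and 1.52% of non-cycling cells. *Ccne2* was seen in 25.8% of thinned GPC_8 and 1.67% of GPC_9 cells (52.1% and 4.88% unthinned), and *Cdc20* in 20.8% and 59.5% (53.8% and 79.1% unthinned). *Hist1h2bc* again ran against the other histones, with 35.1% of thinned GPC_8, 61.4% of GPC_9 and 53.7% of non-cycling cells. Unthinned, at the greater depth of GPC_8, the shares were 66.9, 84.0 and 61.5%, so the order of GPC_8 and non-cycling cells turned. The thinned share was 21.1% in NEU_22 and 20.7% in the endothelial cluster END_7, whose median depth was 26536 UMIs.

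**Figure D4:**
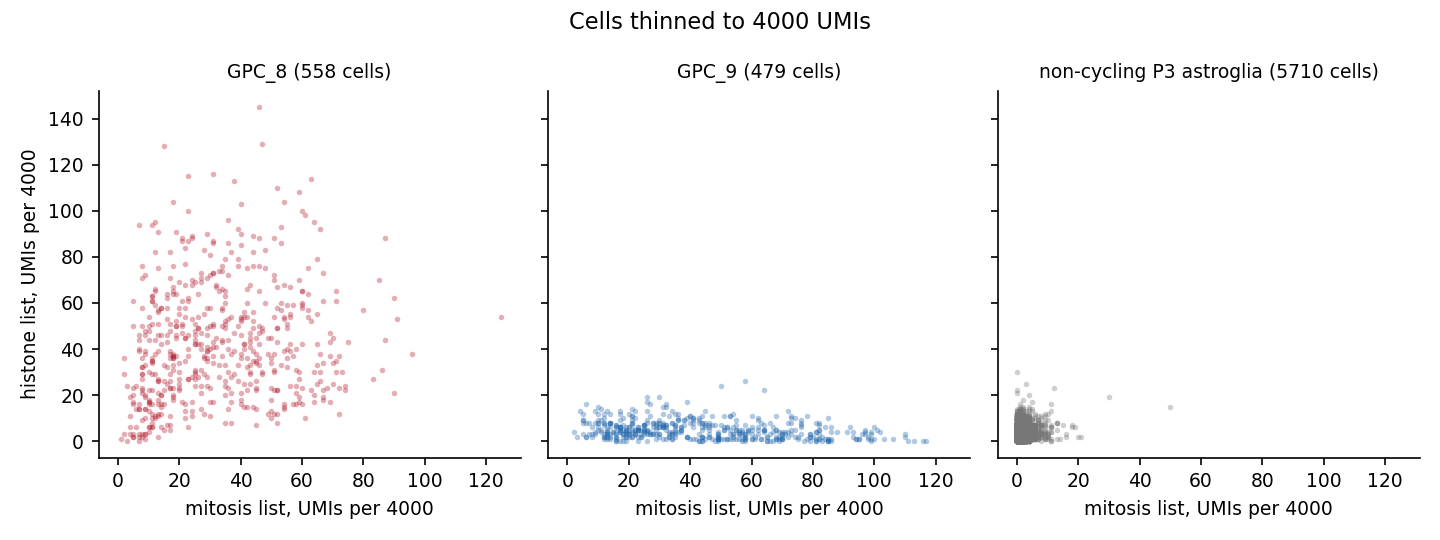
UMIs of the mitotic list (x axis) and of the histone list (y axis) in each cell after thinning to 4000 UMIs, for GPC_8, GPC_9 and non-cycling P3 astroglia. GPC_8 cells spread over both axes around medians of 30 and 39, GPC_9 cells spread along the x axis with a histone median of 4, and non-cycling cells lay near the origin.

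GPC_8 was not uniform. Its thinned cells were grouped by their mitotic UMIs into those with 0 to 9 (63 cells), 10 to 29 (214), 30 to 59 (214) and 60 or more (67), which is a range and not a set of types. Histone UMIs had medians of 20, 38.5, 43 and 42 over these groups, so the cells with fewest mitotic UMIs also held fewest histone UMIs and the remaining groups were alike. The joined licensing, fork and nucleotide lists ran the other way, with medians of 31, 30.5, 22 and 16 UMIs. *Ccne2* was seen in 49.2, 39.3, 13.1 and 1.49% of the cells, and *Mcm6* in 55.6, 58.9, 27.1 and 13.4%. *Ccnb1* was seen in 7.94, 24.8, 55.6 and 83.6%, and *Cdc20* in 1.59, 9.35, 26.6 and 56.7%, but both belong to the list that set the groups.

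Within each library the replication and mitotic UMIs of GPC_8 cells were inversely related, with Spearman coefficients over cells of -0.53, -0.49 and -0.56 in replicates 1 to 3 (141, 242 and 175 cells). Histone and mitotic UMIs had coefficients of 0.27, 0.22 and 0.41, and histone and replication UMIs -0.01, 0.15 and -0.11. The lists share a fixed total of 4000 UMIs per cell, and cells of a library are not replicates, so no test is given. In pseudotime, which the study started in sub-cluster 6 and which is low there by construction, GPC_8 cells ran from 0 to 172 with a median of 50.9. GPC_9 had a median of 104.6 and non-cycling cells one of 156.1. These medians cover only cells with a pseudotime, which all 574 GPC_8 cells and 489 of the 512 GPC_9 cells had.

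**Figure D5:**
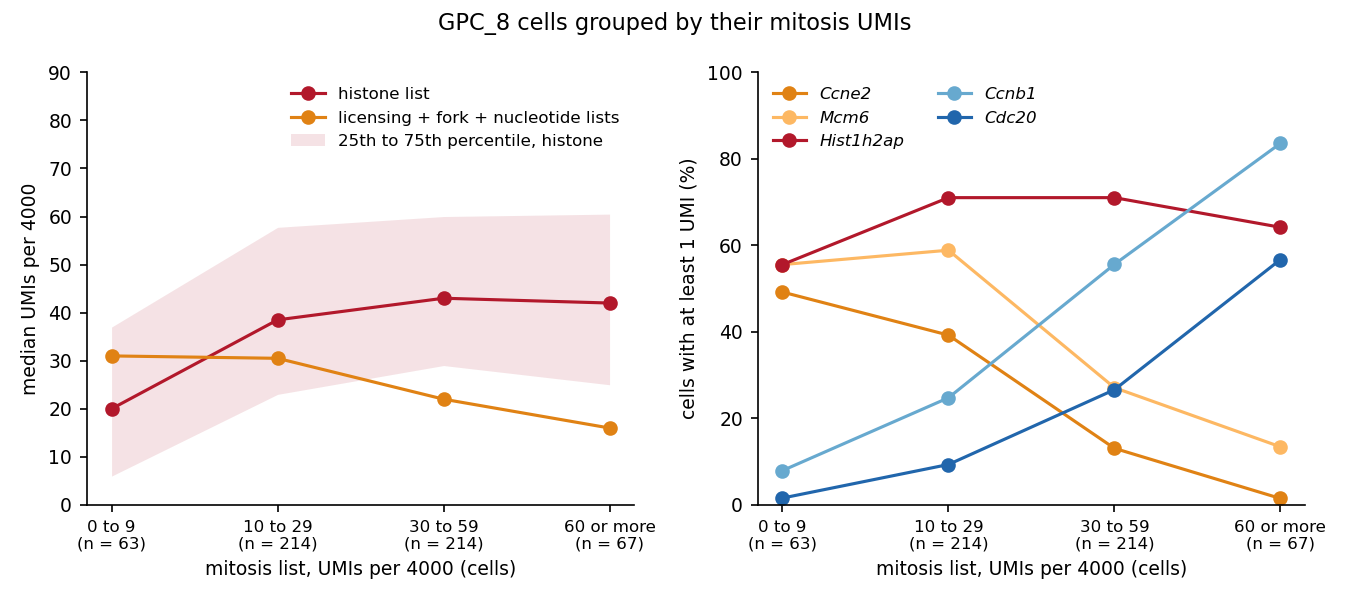
GPC_8 cells thinned to 4000 UMIs, grouped by their UMIs of the mitotic list (x axis, number of cells in brackets). Left, median UMIs of the histone list (red, with the 25th to 75th percentile shaded) and of the licensing, fork and nucleotide lists (orange), and right, percent of cells with at least 1 UMI of 5 genes, in which *Ccne2* went from 49.2 to 1.49% and *Ccnb1* from 7.94 to 83.6%.

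Against GPC_9, the histone variants did not follow the replication-dependent genes. Of 10 histone variants, 0 were higher or lower than in GPC_9 (median 0.02), beside 1.8% higher and 0.323% lower over all genes. Against non-cycling cells 9 lay above 0 (median 0.87), and 4 were higher. These were *H2afx*, which marks DNA breaks (560, 583 and 562 CPM against 49.4, 50.2 and 53.3 CPM, 3.45 ± 0.07), *H2afz* (2.30 ± 0.08) and the linker variants *H1fx* (1.64 ± 0.07) and *H1f0* (1.53 ± 0.06). *H3f3a*, an H3.3 gene, had ratios of 0.12 ± 0.09 over non-cycling cells and 0.01 ± 0.06 over GPC_9. Chromatin proteins of dividing cells were shared by both proliferating clusters, with 10 of 12 higher than in non-cycling cells and 1 higher than in GPC_9. That gene was *Hells*, a chromatin remodeller, at 151, 108 and 124 CPM against 42.7, 32.04 and 47.4 CPM (1.63 ± 0.23). *Hmgb2*, by contrast, stood at 2814, 2318 and 2113 CPM in GPC_8 and 3623, 3061 and 2787 CPM in GPC_9, against 255, 250 and 237 CPM in non-cycling cells.

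GPC_8 kept an astroglial profile at a reduced share of its UMIs. The median GPC_8 cell held 2.56 ± 0.492 times the UMIs of non-cycling cells, so a lower CPM need not be fewer molecules per cell. Of 20 astroglial genes, 11 were lower than in non-cycling cells and 0 higher, with a median of -1.28 against -0.15 for all genes, and 0 were past 2-fold against GPC_9 (median -0.02). Over all genes 5.9% were lower than in non-cycling cells, and 1.8% were higher and 0.323% lower than in GPC_9. *Apoe*, the lipid carrier, stood at 4743, 3086 and 3168 CPM against 17410, 11575 and 11343 CPM in non-cycling cells (-1.87 ± 0.03). *Aldoc*, a glycolytic enzyme (-1.81 ± 0.04), *Gja1*, the gap junction protein connexin 43 (-1.66 ± 0.02), and *Clu*, clusterin (-2.62 ± 0.13), were lower as well. *Gfap*, an intermediate filament of mature astrocytes, stood at 0.719, 13.2 and 26.4 CPM against 51.6, 68.6 and 168 CPM, with the widest spread of the list (-3.28 ± 1.44). The other 9 genes of the list were not past 2-fold in every library, among them *Fabp7* (-0.62 ± 0.04), *Sox9* (-0.99 ± 0.11), *Slc1a3*, a glutamate transporter (-1.08 ± 0.11), and *Nfib*, a gliogenic transcription factor (0.21 ± 0.01). Other genes with large ratios below non-cycling cells were *Crym* (39.5, 126 and 65.7 CPM against 373, 1171 and 1003 CPM, -3.44 ± 0.41), *Entpd2*, an ectonucleotidase (-3.04 ± 0.59), and *Fxyd1*, a regulator of the sodium pump (-2.72 ± 0.36). 

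Within GPC_8, thinned cells held a median of 101 astroglial UMIs (10th to 90th percentile 34 to 199), against 114 in GPC_9 and 204 in non-cycling cells. Over cells, astroglial and histone UMIs had Spearman coefficients of -0.44, -0.22 and -0.28 in replicates 1 to 3. Of 13 progenitor genes past the filter, 1 was higher and 1 lower than in non-cycling cells, and 0 were past 2-fold against GPC_9. Over all genes 6.23% were higher and 5.9% lower than in non-cycling cells, and 1.8% and 0.323% than in GPC_9. The progenitor counts were thus close to the shares of all genes. The lower gene was *Btg2*, an antiproliferative gene, at 103, 53.4 and 60.4 CPM against 300, 136 and 142 CPM (-1.36 ± 0.16). *Egfr* (0.24 ± 0.18), *Olig1* (0.46 ± 0.21), *Olig2* (0.51 ± 0.18) and *Nes* (0.84 ± 0.21) were less than 2-fold apart in at least 1 library.

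Markers of other cell types were low in GPC_8. Summed levels by library ranged from 27.2 to 31.6 CPM over 8 oligodendrocyte precursor genes, from 47.1 to 74.7 CPM over 12 neuroblast genes, from 2.5 to 3.2 CPM over 4 endothelial, from 9.5 to 15.0 CPM over 4 pericyte, from 0.0 to 0.4 CPM over 4 microglial, from 3.2 to 6.1 CPM over 4 oligodendrocyte, from 1.4 to 4.7 CPM over 4 erythroid and from 14.4 to 22.5 CPM over 4 multiciliated cell genes. *Dlx5*, *Dlx6*, *Dlx6os1*, *Csf1r*, *Cx3cr1*, *Mag*, *Mog* and *Tmem212* were at 0 UMIs in all GPC_8 cells. The pericyte gene *Pdgfrb* was the 1 gene of these lists past 2-fold, at 7.91, 5.98 and 7.50 CPM against 46.8, 32.1 and 31.3 CPM in non-cycling cells (-2.20 ± 0.25). The telencephalic genes *Lhx2* and *Emx2* were present, with 96.3, 80.1 and 108 CPM for *Lhx2* against 105, 127 and 165 CPM in non-cycling cells (-0.46 ± 0.30). All 4 telencephalic genes lay below 0 in this ratio, with a median of -0.45, and 0 were past 2-fold. *Agt*, a marker of non-telencephalic astrocytes, was lower (23.7, 11.8 and 11.8 CPM against 81.4, 73.0 and 57.2 CPM, -2.15 ± 0.40). It was the 1 gene past 2-fold of 3 non-telencephalic genes past the filter, of which 1 lay above 0. None of the 9 immediate early genes, which respond to dissociation, was past 2-fold in either comparison, with list medians of -0.34 against non-cycling cells and 0.50 against GPC_9. Over all genes 6.23% were higher and 5.9% lower than in non-cycling cells, and 1.8% and 0.323% than in GPC_9. A count of 0 in a list this short is close to those shares.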

How the data were processed

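Cells from P3 and 3m striatum were captured with 10x 3′ chemistry. The deposited values are raw UMI counts per gene and cell, which the authors made with Cell Ranger on mm10. Their stated filter keeps a cell if more than 500 genes were detected and mitochondrial UMIs were below 10%. Clusters (resolution 0.6, astroglial re-clustering 0.7, Seurat) and pseudotime, a Slingshot score without a unit, are the authors' deposited annotation, and doublets were not called again here. Of 16690 barcodes in the table, the 14373 annotated cells were used, and 0 columns of unmapped samples were left out.

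UMIs were summed per P3 library and population and scaled to CPM. Populations of 1 library share that library, so ratios were taken within libraries, with a pseudocount of 1 CPM for genes whose mean reached 5 CPM in one or the other population. Named genes were the cluster's markers, the 10 furthest in each direction that averaged 50 CPM or more where they were higher, predicted genes left out, and members of the gene lists. The members and lists were chosen with earlier results of these data known. As clusters were drawn from all genes, no test between them was made. TMM and RLE factors came from edgeR 4.0.16, other steps from Python 3.11.15 with pandas 2.3.3, and the steps were tested on simulated data. Sequences are from GRCm38 and RefSeq. Libraries are pools of animals, so spreads are between pools. Some genes of the lists are not reported here.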

Additional observations from a re-analysis of the deposited data

Results flagged for a closer look

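Histone-rich cells were also counted outside GPC_8, as P3 cells with at least 13 histone UMIs of 4000, the 10th percentile of GPC_8. They made up 7.6% of the 1394 non-astroglial P3 cells that held at least 4000 UMIs, a population outside the comparisons above. Shallower cells were left out, so that 34 of 339 END_13 cells and 459 of 628 PER_6 cells were counted. By cluster the share was 20.6% in END_13 (7 of 34 cells), 10.9% in PER_6 (50 of 459), 6.83% in END_7 (41 of 600) and 7.14% in MIC_16 (6 of 84), against 2 of 77 cells in OPC_18 and 0 of 85, 31 and 19 cells in LOW_20, LOW_23 and NEU_22. Groups of 3 libraries were not searched for outlying samples.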

How the results depend on the processing

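No log2 ratio of a named gene counted as higher or lower, and no histone median, changed sign under the alternatives run. The other counted genes were not followed one by one across settings. Ratios of some genes short of 2-fold did change sign. The larger side of the split against non-cycling cells and the order of the *Hist1h2bc* shares turned over, as given above. The count of genes past 2-fold against non-cycling cells (1278) fell to 802 with a pseudocount of 5 CPM and to 850 with a filter at 20 CPM. Against GPC_9 the count (210) was 339 without the replicate block, that is, from ratios of the population means, and 1892 against non-cycling cells. The histone median against non-cycling cells (3.67) was 2.41 with a pseudocount of 5 CPM and 3.29 without the filter, and against GPC_9 (3.15) it was 2.32, 2.67 and, with a filter at 20 CPM, 3.75. The UMI ratio over GPC_9 (1.40) was 1.22 from means in place of medians. Leaving out 1 replicate gave 1400 to 1530 genes against non-cycling cells, 253 to 284 against GPC_9, histone medians of 3.54 to 3.75 and 3.20 to 3.48, and a share of P3 astroglia of 6.02 to 7.64%; these counts need agreement in fewer libraries. Chosen after seeing the data, leaving out AST_P3_4 gave 1294 genes and a histone median of 3.73. Depth limits genes under about 5 CPM, which were not compared.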

Other observations

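Among the P3 cells outside GPC_8 that kept 4000 UMIs, 171 of 7782 (2.20%) reached 13 histone UMIs. In GPC_9 these were 24 of 479 (5.01%) and in AST_P3_3 22 of 1024 (2.15%), and in AST_P3_4 5 of 32 (15.6%).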
